A study of Mus musculus with 4 samples.

Results

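The genes of platelet-derived growth factor (PDGF) signalling were examined in lung cells of mice given bleomycin. The set comprises the 4 ligand genes Pdgfa, Pdgfb, Pdgfc and Pdgfd, the receptor genes Pdgfra and Pdgfrb, and the receptor-like gene Pdgfrl. A gene was measured where a row of the deposited table was annotated to that symbol alone, which held for 6 of the 7 listed genes among 30142 genes in all. Pdgfra was the exception: its row also names the microRNA gene Mir7025, which RefSeq places inside Pdgfra, and that row is described separately. The samples were CD45-negative cells, that is, cells without the surface marker of leukocytes, from the lungs of C57BL/6 mice. The control group had received phosphate-buffered saline (PBS) into the trachea, and the other group bleomycin (BLM), a drug that breaks DNA and scars the lung. All cells were taken 10 days later, and each group had 2 arrays. Whether the pair of samples in a group came from different mice is not stated in the labels. The p-values therefore reflect only how far these samples differ from each other, possibly for technical reasons.

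PDGF ligands are secreted as dimers that bind a pair of receptor tyrosine kinases on mesenchymal cells, where they drive migration, division and survival. PDGF-A and PDGF-B are cut to their active form by furin-type proteases before release, whereas PDGF-C and PDGF-D carry a CUB domain that proteases outside the cell must remove. In the lung, epithelial PDGF-A acts on fibroblasts that bear PDGF receptor alpha and that build alveolar septa, and endothelial PDGF-B recruits pericytes that bear PDGF receptor beta. Platelets and macrophages are further known sources of PDGF, and PDGF receptors are among the kinases that the fibrosis drug nintedanib inhibits.

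Values are log2 levels as deposited, and differences are BLM minus PBS on that scale, given with a standard error (SE), n = 2 arrays per group. Rose and fell are used of genes with an adjusted p below 0.05 in the limma fit over all genes, and every adjusted p in the text is from limma unless another test is named. The median level of a gene was 6.03. Xist, a long RNA that female cells make from their silenced X chromosome, measured 15.86 and 15.61 with PBS and 5.60 and 5.43 with BLM. The labels give no sex, so each difference below is also one between Xist-high and Xist-low arrays, and treatment and sex cannot be told apart. None of the PDGF genes is on the X or Y chromosome. Ptprc, the CD45 gene, measured 6.30 and 6.21 with PBS and 7.19 and 7.20 with BLM. That is a rise of 0.94 (SE 0.083, adjusted p = 0.00166).

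Of the 6 PDGF genes, 5 rose and none fell. Of all genes 25.3% were called, 15.2% higher and 10.1% lower. The mean level of each of the 6, taken over the arrays of both groups, was above the gene median. Pdgfrl cleared it only through its BLM arrays, as its PBS mean of 5.94 was under the median PBS level of 6.01. In a fit of only the 15071 genes brighter than the median by that same mean, 8050 passed, 4743 higher and 3307 lower. Both receptor-family genes rose at least 2-fold, as did the ligand gene Pdgfc, where 2.81% of all genes rose by as much. Pdgfb and Pdgfa rose by less, and Pdgfd did not pass. The BLM arrays lay above both PBS arrays for the 5 genes that rose, as for 38.0% of all genes; 63.3% of all genes had groups that did not overlap in either direction. The median difference of the 6 genes was 1.16, against 0.05 for all genes. Only 3 of the 6 passed without BLM replicate 1, and 4 without PBS replicate 1 or without BLM replicate 2. In these bulk samples, more cells that express a gene and more of its RNA per cell cannot be told apart.

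**Figure D1:**
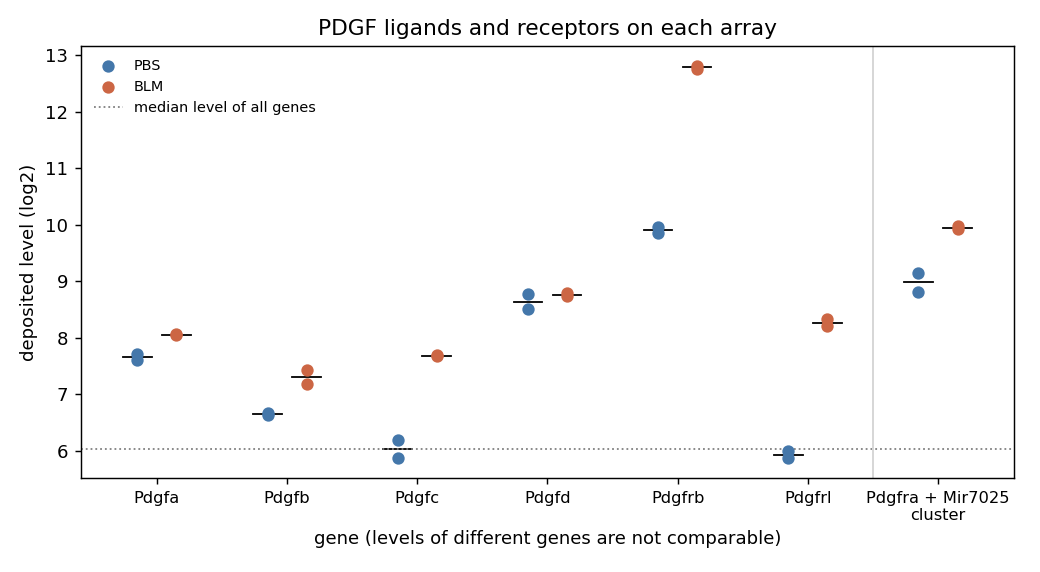
Deposited log2 level (vertical axis) of each PDGF gene (horizontal axis) on the PBS arrays (blue) and BLM arrays (orange), with a short line at each group's mean and a dotted line at the median level of all genes, 6.03. Pdgfrb stands 2.88 higher on the BLM arrays, whereas the Pdgfd arrays of both groups overlap; the last column is the row that names both Pdgfra and Mir7025.

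The receptor gene Pdgfrb showed the greatest rise. PDGF receptor beta is the receptor for PDGF-B and PDGF-D and is carried by pericytes, smooth muscle and fibroblasts. Its level was 9.85 and 9.95 with PBS and 12.82 and 12.75 with BLM. The gap between groups was thus far wider than the gaps of 0.099 and 0.068 within them. The difference was 2.88 (SE 0.086, 95% interval 2.66 to 3.10, adjusted p = 0.00024), or 7.35-fold, and 41 of the 30142 genes had a greater one. It stood at 2.83 to 2.93 without each array in turn.

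Pdgfrl encodes a secreted protein that resembles the extracellular part of a PDGF receptor and has no kinase. It measured 5.87 and 6.01 with PBS and 8.33 and 8.21 with BLM. Both PBS values are under the gene median, where differences on arrays are compressed. It rose by 2.33 (SE 0.097, 95% interval 2.09 to 2.58, adjusted p = 0.00035), and 94 genes rose further. Whether Pdgfrb and Pdgfrl rose by unequal amounts was not tested.

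The row that names both Pdgfra and Mir7025 measured 8.81 and 9.15 with PBS and 9.92 and 9.97 with BLM. PDGF receptor alpha binds PDGF-A, PDGF-B and PDGF-C, and its gene is a marker of lung fibroblasts. The groups did not overlap on this row, but its values cannot be assigned to Pdgfra. In the fit over all 65956 transcript clusters, where 7.23% were called higher, the row differed by 0.97 (SE 0.14, 95% interval 0.60 to 1.33, adjusted p = 0.0133). With either BLM array left out the row did not pass (adjusted p = 0.0524 without replicate 1, 0.0544 without replicate 2). Pdgfrb lay above this row by 1.04 and 0.80 on the PBS arrays and by 2.89 and 2.77 on the BLM arrays. These differences between probes are no measure of which receptor is more abundant, but their change shows that the rows moved by unequal amounts. The change of 1.91 (SE 0.11, 95% interval 1.62 to 2.20) had an adjusted p of 0.000595 when the ratio was added to the limma fit. The exact two-sided permutation test gave 0.333 for this and for each of the other 2 ratios below, also after adjustment over the 3, which is the smallest p that 2 arrays against 2 allow.

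Among the ligands, Pdgfc rose most. PDGF-C is released as a latent protein and acts mainly through PDGF receptor alpha. Its gene measured 6.19 and 5.88 with PBS, close to the median level of all genes, and 7.68 and 7.70 with BLM. The difference was 1.65 (SE 0.12, 95% interval 1.34 to 1.97, adjusted p = 0.00109), or 3.15-fold, exceeded by 248 genes. The PBS arrays differed from each other by 0.31 and the BLM arrays by 0.015.

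Pdgfd, the gene of the other latent ligand, which acts through PDGF receptor beta, did not pass. Its level was 8.50 and 8.77 with PBS and 8.74 and 8.79 with BLM, and the groups overlapped. The difference was 0.13 (SE 0.11, 95% interval -0.16 to 0.41, adjusted p = 0.488), and it lay between -0.0087 and 0.26 without each array in turn. The level of Pdgfc minus that of Pdgfd on the same array was -2.31 and -2.90 with PBS and -1.06 and -1.09 with BLM. The change of this ratio was 1.53 (SE 0.19, 95% interval 1.04 to 2.02, limma adjusted p = 0.00482).

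Pdgfb, the gene of the ligand that endothelium uses to recruit pericytes, measured 6.67 and 6.63 with PBS and 7.43 and 7.19 with BLM. The groups did not overlap, and the BLM arrays lay 0.24 apart. The rise was 0.66 (SE 0.11, 95% interval 0.39 to 0.93, adjusted p = 0.0105), or 1.58-fold. Without BLM replicate 1, the higher of the pair, it stood at 0.54 and its call ended (adjusted p = 0.0513).

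Pdgfa, the gene of the ligand specific to PDGF receptor alpha, measured 7.61 and 7.71 with PBS and 8.06 and 8.05 with BLM. This was the narrowest rise of the set, 0.40 (SE 0.084, 95% interval 0.19 to 0.61, adjusted p = 0.023), or 1.32-fold. The call ended without PBS replicate 1 (adjusted p = 0.0809), without BLM replicate 1 (0.119), without BLM replicate 2 (0.107) and in the fit over all transcript clusters (0.0581). The direction was the same in each of these. The ratio of Pdgfa to Pdgfb changed by -0.26 (SE 0.11, 95% interval -0.55 to 0.02, limma adjusted p = 0.159), so a difference between their rises was not shown.

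**Figure D2:**
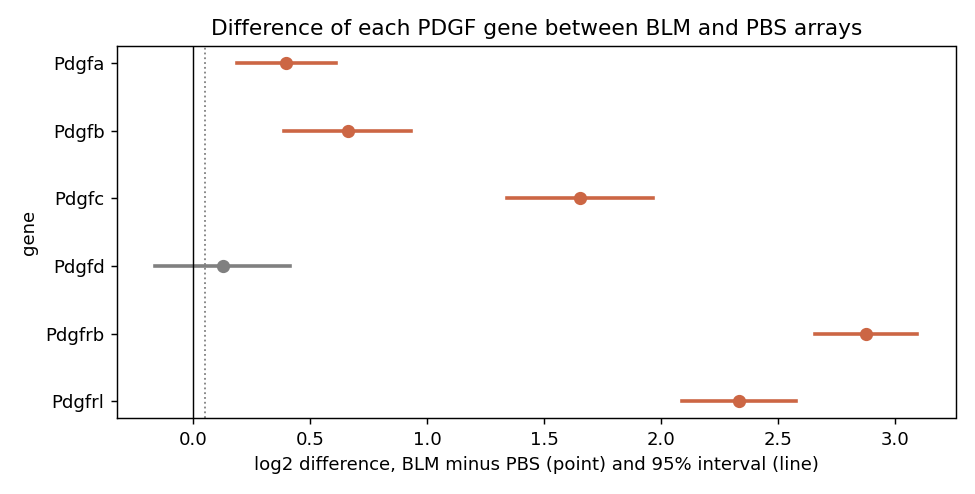
Log2 difference of BLM minus PBS (horizontal axis; point) with its 95% interval (line) for each PDGF gene (vertical axis), n = 2 arrays per group; orange marks genes that passed the adjusted threshold, grey Pdgfd, and the dotted line the median of all genes, 0.05. Pdgfrb and Pdgfrl, at 2.88 and 2.33, stand furthest to the right, and only the interval of Pdgfd includes 0.

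The sequences around the start sites of Pdgfc, Pdgfd and Pdgfa are shown because these ligand genes span the greatest rise among the ligands, no call and the narrowest rise. Each window holds 250 bases before and 50 after a RefSeq start site on GRCm38.p6, 5′ to 3′ on the gene's strand, and Pdgfa has 2 such sites. Windows were retrieved for 4 of the 7 genes listed, and this count does not show that RefSeq lacks start sites for the others. Capitals mark matches, on either strand, to the GC box GGGCGG bound by SP1, the AP-1 site TGANTCA, the SMAD box CAGAC, the TATA box TATAAA and the CArG box bound by serum response factor.
Pdgfc, chr3:81036166-81036465, plus strand: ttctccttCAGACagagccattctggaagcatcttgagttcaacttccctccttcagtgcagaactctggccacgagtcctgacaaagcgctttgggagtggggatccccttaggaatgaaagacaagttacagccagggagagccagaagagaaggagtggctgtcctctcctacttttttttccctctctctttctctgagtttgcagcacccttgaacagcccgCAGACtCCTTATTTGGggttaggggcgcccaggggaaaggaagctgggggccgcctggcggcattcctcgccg
Pdgfd, chr9:6168236-6168535, plus strand: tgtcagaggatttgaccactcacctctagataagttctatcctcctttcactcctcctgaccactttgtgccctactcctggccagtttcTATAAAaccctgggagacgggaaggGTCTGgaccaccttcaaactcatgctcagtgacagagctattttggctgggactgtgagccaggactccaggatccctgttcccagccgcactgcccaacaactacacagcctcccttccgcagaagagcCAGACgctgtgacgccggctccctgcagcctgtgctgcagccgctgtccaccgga
Pdgfa, chr5:138994232-138994531, minus strand: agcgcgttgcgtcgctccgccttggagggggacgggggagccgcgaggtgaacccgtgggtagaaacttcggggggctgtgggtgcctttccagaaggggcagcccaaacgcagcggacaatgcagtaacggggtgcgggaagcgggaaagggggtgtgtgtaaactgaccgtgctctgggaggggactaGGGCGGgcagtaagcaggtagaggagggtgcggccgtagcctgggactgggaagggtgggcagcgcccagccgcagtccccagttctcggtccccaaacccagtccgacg
Pdgfa, chr5:138994895-138995194, minus strand: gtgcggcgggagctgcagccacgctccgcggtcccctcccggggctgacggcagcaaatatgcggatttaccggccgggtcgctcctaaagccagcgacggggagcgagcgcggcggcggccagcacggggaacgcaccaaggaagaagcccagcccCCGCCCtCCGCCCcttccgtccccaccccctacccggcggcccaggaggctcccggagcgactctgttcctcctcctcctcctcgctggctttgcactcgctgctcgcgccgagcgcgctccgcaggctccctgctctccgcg

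The Pdgfc window held 1 CArG box, a motif found in 1.63% of all 32851 windows of this length, and 2 SMAD boxes, which overlap neither each other nor the CArG box. SMAD boxes are common, being found in 49.6% of windows, and the Pdgfd window also held 2. Pdgfd had the single TATA box, a motif present in 13.6% of windows. Of the Pdgfa windows, the first held 1 GC box and the second 2, against 35.7% of windows with at least 1. The AP-1 letters, found in 7.81% of windows, were in none of the 4. The second Pdgfa window was the richest in G and C, at 73.3%, against 67.0% in the first, 55.0% for Pdgfc, 56.7% for Pdgfd and a median of 52.7% over all windows. These matches describe the letters of each window and are no evidence of binding.

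Most genes of proteins that activate or bind PDGF outside the cell were higher with BLM. Of 9 genes of this list with a row of their own, 6 rose, 1 fell and 2 did not pass, beside 15.2% of all genes higher and 10.1% lower. Their median was 0.80 against 0.05 for all genes. None lay below the median level on every array, and of the 15071 genes brighter than the median 4743 passed higher and 3307 lower. Plat, tissue plasminogen activator, which cuts the CUB domain from PDGF-C, rose by 1.32 (SE 0.089, adjusted p = 0.00084), from a mean of 9.72 to one of 11.05. Plau, urokinase, a protease that activates PDGF-D, rose by 0.84 (SE 0.099), from 5.78 and 5.62, both dim, to 6.47 and 6.60. St14, the epithelial protease matriptase, which also cuts PDGF-D, fell by 0.48, but did not pass when BLM replicate 1 (adjusted p = 0.0619) or BLM replicate 2 (0.0748) was left out. The endocytic receptor gene Lrp1, whose product associates with PDGF receptor beta, rose by 1.37 (SE 0.083) and Sparc, which encodes a matrix protein that binds PDGF-B, by 1.35 (SE 0.11). Chosen after their values were seen, the proprotein convertase genes Pcsk5 and Furin differed by 0.80 and 0.34. The other convertase genes of the list, Pcsk6 and Pcsk7, did not pass, at -0.003 and 0.049 (adjusted p = 0.985 and 0.743). Furin's call ended without any 1 of the arrays (adjusted p = 0.0659 to 0.154), with the replicate block (0.0602), over all transcript clusters (0.0819) and with cyclic loess (0.0561).

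Of 28 genes that relay the signal inside the cell, 6 passed, 3 higher and 3 lower, a share near the 25.3% of all genes called. Their median of 0.06 was close to that of all genes. No gene of this list lay below the median level on every array. In a fit of only the 15071 genes brighter than the median, 8050 passed. The adaptor gene Crkl stood at 0.58, the kinase gene Braf at -0.57, the phosphoinositide 3-kinase subunit gene Pik3r1 at 0.56 and the adaptor gene Gab1 at -0.48. None of them passed without BLM replicate 1 (adjusted p = 0.057, 0.0665, 0.0615 and 0.108), and Braf, Pik3r1 and Gab1 also without BLM replicate 2 (0.0682, 0.0529 and 0.176). Gab1 lost it without PBS replicate 2 (0.115), with the replicate block (0.0689) and over all transcript clusters (0.0814) too. None of the 28 passed without BLM replicate 1, and 1 rose and none fell without BLM replicate 2. The count that fell was 1 without PBS replicate 2 and over all transcript clusters, 6 with the filter on dim genes and with the trended robust prior, and 7 with cyclic loess.

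Genes that attenuate receptor signalling changed in both directions: 7 of 12 rose, 3 fell and 2 did not pass, with a median of 0.39. Of all genes, 15.2% were called higher and 10.1% lower. None of the 12 lay below the median level on every array. Of the 15071 genes brighter than the median, 4743 passed higher and 3307 lower. Dusp6, a phosphatase that switches off the kinase ERK and is itself induced by ERK, rose by 1.59 (SE 0.12, adjusted p = 0.00111), from 11.35 and 11.64 to 13.13 and 13.06. Spry4, one of the Sprouty inhibitors of receptor kinase signalling, rose by 1.33 (SE 0.087), from 5.45 and 5.57 to 6.86 and 6.83, whereas its relative Spry1 stood at -0.50. Leaving out BLM replicate 1 (adjusted p = 0.0697) or 2 (0.0511) ended the call of Spry1. The ubiquitin ligase genes Cblb and Cbl, whose products send receptors to degradation, were higher by 0.65 and 0.52. Cbl lost its call without PBS replicate 1 (0.137), PBS replicate 2 (0.11) or BLM replicate 2 (0.147), over all transcript clusters (0.0795), with median centring (0.0535) and with cyclic loess (0.166). The number that rose was 4 without PBS replicate 1 or BLM replicate 1 and 3 without BLM replicate 2. The number that fell was 1 without PBS replicate 2 and 0 without either BLM array.

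Among 16 genes that growth factors such as PDGF induce in cultured fibroblasts, 8 rose, 3 fell and 5 did not pass. Their median was 0.32, and 15.2% of all genes were called higher and 10.1% lower. Only 2 of the list lay below the median level on every array. Of the 15071 genes brighter than the median, 4743 passed higher and 3307 lower. Ccl2, the gene of a monocyte chemokine, rose by 1.65 (SE 0.22), from 6.71 and 7.36 to 8.63 and 8.74. The hyaluronan synthase gene Has2 rose by 1.13 (SE 0.08), the prostaglandin synthase gene Ptgs2 by 1.12 (SE 0.10) and the chemokine gene Ccl7 by 0.99 (SE 0.19), whose call ended without PBS replicate 1 (adjusted p = 0.0749). The immediate early gene Ier2 fell by 0.82 (SE 0.08). Without BLM replicate 2, 1 gene of the list fell in place of 3. These genes answer to many signals besides PDGF. Of 12 macrophage markers, described below, 9 rose and 2 fell on the same arrays. The part of PDGF or of macrophages in the changes of this list was not tested.

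Relatives of the PDGF family were measured beside it, without a test between the families. Their counts stand beside 15.2% of all genes called higher and 10.1% called lower. Only 1 gene, of the class III list, lay below the median level on every array. Among the 15071 genes brighter than the median, 8050 passed, 4743 higher and 3307 lower. Of 7 other class III receptor kinases and their ligands, 4 rose and none fell, with a median of 0.55 and none above 0.77. Kit, the stem cell factor receptor gene, and Il34, a ligand gene of the macrophage growth factor receptor, both stood at 0.77 (SE 0.10 and 0.12), that receptor's gene Csf1r at 0.60 and its other ligand gene Csf1 at 0.55. Il34 did not pass when BLM replicate 2 was left out (adjusted p = 0.052), nor Csf1r when BLM replicate 1 was (0.0615). Of 8 VEGF ligands and receptors, which share the cystine-knot fold and receptor architecture of the PDGF system, 5 rose and none fell, with a median of 0.62. Vegfd and Flt4, a lymphatic growth factor gene and the gene of its receptor, rose by 1.46 (SE 0.12) and 1.15 (SE 0.089), the placental growth factor gene Pgf by 1.19 (SE 0.095) and Vegfc by 0.82 (SE 0.083).

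**Figure D3:**
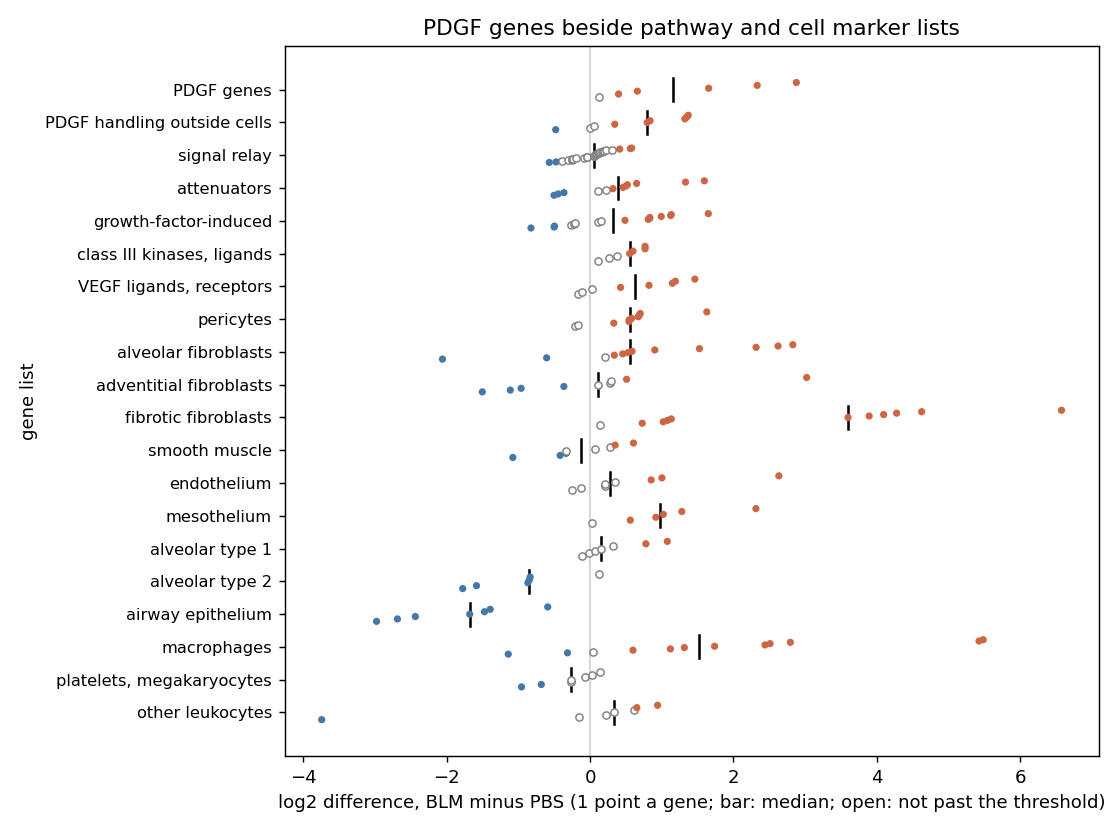
Log2 difference of BLM minus PBS (horizontal axis) for each gene of the PDGF set and of the pathway and cell marker lists (vertical axis), 1 point a gene, orange where it rose, blue where it fell and open where it did not pass, with a bar at each list's median. The PDGF set has a median of 1.16, the signal relay genes cluster around 0.06 and the fibrotic fibroblast markers reach 6.58.

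Markers of cells that bear PDGF receptors are given list by list, beside 25.3% of all genes called. Among only the 15071 genes brighter than the median, 8050 passed. Of 11 markers of fibrotic fibroblasts, 10 rose, led by the matrix gene Tnc at 6.58 (SE 0.097) and the secreted Wnt antagonist gene Sfrp1 at 4.63 (SE 0.19), and their summed level went from 12.54 and 12.55 (log2) to 15.95 on each BLM array. Of 10 pericyte markers, 8 rose and none fell, with a median of 0.56, and their summed level went from 10.41 and 10.45 to 10.78 and 10.74. Cspg4, the NG2 proteoglycan gene of pericytes, measured 7.14 on each PBS array and 7.77 and 7.60 with BLM, the channel gene Trpc6 rose by 1.63 (SE 0.11) and Rgs5 by 0.70 (SE 0.079). Cspg4 did not pass without BLM replicate 1 (adjusted p = 0.0748), where 3 pericyte markers rose, and 5 rose without BLM replicate 2. Alveolar fibroblast markers rose in 9 of 12 cases and fell in 2, with Scn3b at 2.83, Gyg at 2.62 and Ces1d at -2.06, and 5 rose without either BLM array while 1 fell without PBS replicate 2 or either BLM array. The median of the 12 was 0.56, whereas their summed level went from 16.59 and 16.70 to 16.07 and 16.004. That sum is dominated by the pair that fell, Ces1d and, named after its value was seen, Inmt at -0.61. Of 9 adventitial fibroblast markers 2 rose, among them Mfap5 at 3.02, and 4 fell, among them Adh7 at -1.50; 1 rose without BLM replicate 2. Of 8 smooth muscle markers 2 rose, with Actg2 at 0.61, and 3 fell, with Myh11 at -1.08, and 1 rose and 1 fell without any 1 of the arrays. The part of these cells in the rise of Pdgfrb was not tested.

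Markers of cells that make PDGF, and of other lung cells, are likewise given beside the 25.3% of all genes called. Among only the 15071 genes brighter than the median, 8050 passed. Of 12 macrophage markers 9 rose and 2 fell, with Ctss at 5.49 (SE 0.13), Clec7a at 5.43 (SE 0.18) and Lyz2 at -1.14 (SE 0.091), and 1 fell without any 1 of the arrays. Their summed level went from 19.42 and 19.28 to 18.30 and 18.25, whereas their median difference was 1.53. That sum is dominated by Lyz2, at 19.42 and 19.28 with PBS and 18.23 and 18.18 with BLM. Whether macrophages were the source of Lyz2 in these samples was not tested. Of 7 other leukocyte markers Ptprc and the neutrophil gene S100a8, named after its value was seen, rose, and the basophil gene Mcpt8 fell by 3.74 (SE 0.14), 4 lay below the median level on every array, and Ptprc alone rose without PBS replicate 2 or BLM replicate 1. Of 7 platelet and megakaryocyte markers, a share called near that of all genes, none rose and 2 fell, Ppbp by 0.96 (SE 0.15) and Itga2b by 0.68 (SE 0.082), while Pf4 differed by 0.03 (95% interval -0.24 to 0.31, adjusted p = 0.871), a sign that turned with cyclic loess and without PBS replicate 1. Of 8 endothelial markers 3 rose, Emcn by 2.63 (SE 0.14) and Erg by 1.003 (SE 0.13) among them, and none fell, but 1 fell with cyclic loess; their summed level was 16.94 and 17.11 with PBS and 17.37 and 17.20 with BLM. Mesothelial markers rose in 5 of 6 cases, with Upk1b at 2.31 and Msln at 1.28, and in 3 without either BLM array. Alveolar type 1 markers rose in 2 of 7, again near that share, Akap5 at 1.08 and Pdpn at 0.78, alveolar type 2 markers fell in 5 of 6, with Etv5 at -1.78 and Lamp3 at -1.59, and airway markers fell in 7 of 7, with Tmem212 at -2.98 and Cdhr3 at -2.69. Log2 array values have no 0, so no marker can be called absent. S100a8 was among the markers below the median level on every array, at 5.03 and 4.61 with PBS and 5.53 and 5.41 with BLM. The part of any of these cells in the rises of Pdgfa, Pdgfb and Pdgfc was not tested.

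The genes whose 4 values ran closest to those of each PDGF gene were searched among 14859 genes brighter than the median. Brightness was the mean of the 4 arrays, so genes dim with PBS could enter through their BLM level. With 4 arrays in 2 groups such likeness mostly reflects an equal difference between the groups. Nearest to Pdgfrb were the lysyl oxidase gene Loxl1 at a distance of 0.073, Gpnmb, which encodes a membrane glycoprotein, at 0.099 and the cell cycle inhibitor gene Cdkn1a at 0.11, with differences of 2.92, 2.80 and 2.88. Nearest to Pdgfrl were Slc27a6, a fatty acid transport gene, at 0.063, the thrombospondin gene Thbs2 at 0.082 and the serum amyloid gene Saa3 at 0.10. Nearest to Pdgfc was Eda2r, a receptor gene of the tumour necrosis factor family, at 0.04, whose PBS arrays, 5.72 and 5.38, were also spread, followed by the phosphate transporter gene Slc20a1 at 0.12 and Pld4 at 0.14. Pdgfb ran closest to Nit2, Gm22154 and Itgbl1, at 0.024, 0.038 and 0.046, and Pdgfa to Mcc, Zmat3 and Rnf138, at 0.012, 0.014 and 0.014. Within the family the closest pairs were Pdgfa with Pdgfd, at 0.30, and Pdgfa with Pdgfb, at 0.32, and the furthest Pdgfd with Pdgfrb, at 2.76.

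**Figure D4:**
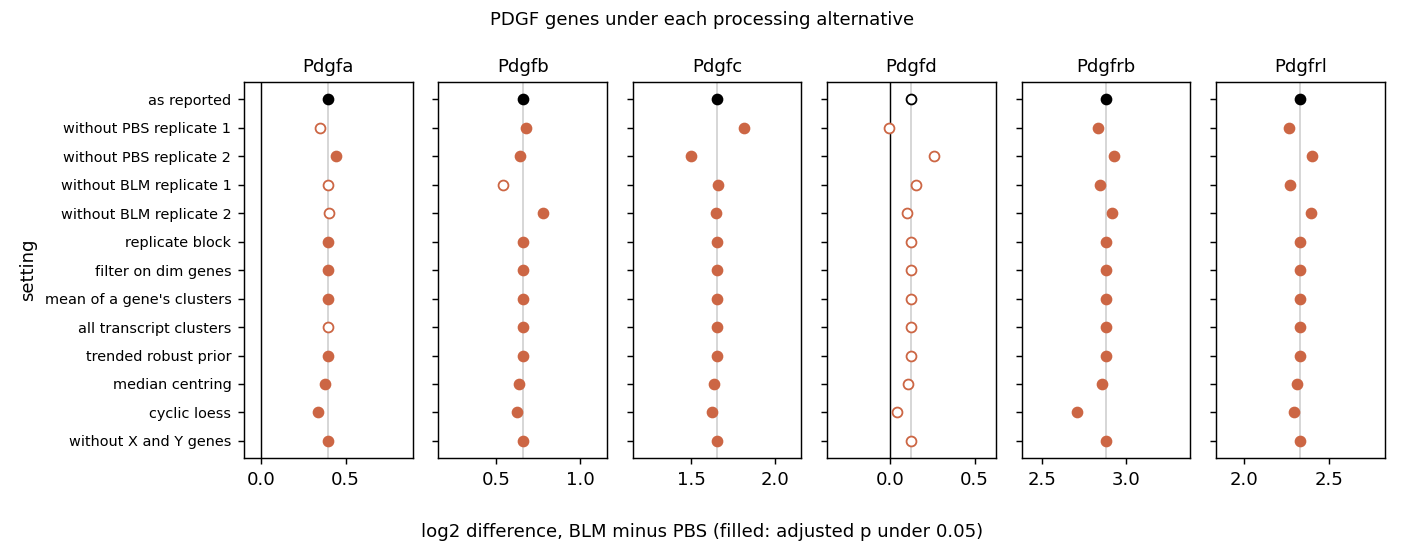
Log2 difference of BLM minus PBS (horizontal axes, each spanning 1 unit around the reported value) of the 6 PDGF genes under each processing setting (vertical axis), filled where the adjusted p was under 0.05. Pdgfc, Pdgfrb and Pdgfrl are filled throughout, Pdgfa is open in 4 settings and Pdgfb in 1, and Pdgfd is open throughout and crosses 0 without PBS replicate 1.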

How the data were processed

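Total RNA of 4 samples was hybridised to Affymetrix arrays. The authors deposited log2 values per transcript cluster, which the submitters' processing notes credit to RMA and Affymetrix Expression Console. No build, version or further scaling is stated in the labels. The values reach 19.9, a scale that is not explained there. No detection calls were used, so dim genes were kept and their differences are compressed. The number of arrays limits the precision. Clusters were named from the platform annotation: 30604 had 1 gene symbol, 2146 several and 33206 none. Where a gene had several clusters (355 genes), the one with the highest mean was kept, leaving 30142 genes, and 827 symbols were updated through Entrez identifiers.

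All genes were fitted with limma 3.58.1 in R 4.3.3 (lmFit, eBayes, two-sided, Benjamini-Hochberg over 30142 genes, threshold 0.05), with 2 residual and 3.33 prior degrees of freedom. The fit was tested on simulated data with known changes and independent noise. That test does not bear on treatment and sex, which cannot be told apart here. The fit of 65956 clusters, named or not, was an alternative, as were leaving out each array, the replicate number as a block, a dim-gene filter, averaging the clusters of a gene, a trended robust prior, median centring, cyclic loess and leaving out the X and Y chromosomes. The members, gene lists and tests were chosen with earlier results of these data known. Named from each pathway list were up to 4 genes, and from each marker list up to 2, with the largest difference past the threshold, and the furthest in the rarer direction. Ptprc, Csf1r, Pf4, Itga2b, Cspg4 and Xist were named whatever their result. Likeness was the Euclidean distance between the 4 values of 2 genes, each gene's mean subtracted, over genes brighter than the median.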

Additional observations from a re-analysis of the deposited data

How the results depend on the processing

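Pdgfrb, Pdgfrl and Pdgfc kept their direction and their calls under all 12 alternatives run, with log2 differences of 2.71 to 2.93, 2.26 to 2.40 and 1.497 to 1.81. For the PDGF genes, only leaving out an array, median centring and cyclic loess could alter the difference itself. The remaining alternatives could alter only its adjusted p, so a kept direction there is no check. Pdgfa, at 0.34 to 0.44, lost its call in the fit over all transcript clusters (0.40, adjusted p = 0.0581) and without PBS replicate 1, BLM replicate 1 or BLM replicate 2. Without each array in turn it ranged from 0.35 to 0.44, with an adjusted p up to 0.119. Pdgfb ranged from 0.54 to 0.78 without each array in turn and did not pass without BLM replicate 1 (0.0513). Pdgfd, never past the threshold, ranged from -0.0087 to 0.26 without each array and turned below 0 without PBS replicate 1. Pf4, near 0 in the report, ranged from -0.092 to 0.15 without each array, below 0 without PBS replicate 1, and was -0.065 with cyclic loess. The number of PDGF genes called, counted after seeing the data, was 3 to 5 without each array in turn. Over all genes the calls numbered 7629 and ranged from 4003 to 5956 without each array. Without a BLM array the spread comes from the PBS pair alone, and the lone BLM array is assumed to vary likewise. With the replicate number as a block 6742 genes passed, and Pdgfa kept its call. Deviations of same-numbered arrays correlated at 0.014 across genes. The labels do not say whether same-numbered arrays share more than a number. With 2 arrays per group this correlation cannot settle it. Of the calls named in the report, the block ended those of Gab1 and Furin. In the lists together 120 genes passed, and 83 to 125 under the alternatives. The 3 within-array ratios kept their direction and their side of the threshold with cyclic loess. Shifts that both genes of a ratio share cancel in it, so this check tests the ratios only in part. The ratios were not fitted without each array. With cyclic loess 49.6% of calls were higher in BLM, against 60.1% as deposited, and with all transcript clusters 45.9%.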
